A study of Mus musculus with 3 samples.

Results

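A set of 9 genes commonly used as markers of the epicardium and mesothelium was followed across the left ventricles of 3 mouse genotypes. The genes are Wt1, Krt8, Krt18, Krt19, Upk3b, Msln, Tbx18, Tcf21 and Aldh1a2, chosen by name with values of these same libraries already known. Of these 9 genes, 8 had a value in every library, out of 15503 genes listed in the deposited tables, and no value for Msln was analysed here. Each genotype was measured once, as a single library made from pooled RNA of 3 mice, so none of the differences below has a replicate check or a test between genotypes. The control library, Egln1_floxed, came from Egln1 floxed mice, which the series' design text calls wild type. The Egln1_Tie2Cre library came from mice carrying Cre under the Tie2 promoter, which is active in endothelial and blood-forming cells. The library labelled Egln1_Hif2a_Tie2Cre carries the same Cre with Hif2a, the protein of Epas1, named as a further target. All were of the C57BL6J strain, and neither age nor sex is given in the labels. Levels are given as FPKM, in which the fragments of a gene are divided by its transcript length and by the library's mapped total, so that genes of different length can be compared within a library.

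The epicardium is the mesothelial sheet that covers the heart. During development it expresses the transcription factors Wt1, Tbx18 and Tcf21 and the retinoic acid synthesising enzyme Aldh1a2, and some of its cells leave the sheet and become fibroblasts and mural cells. Mature mesothelium is a simple epithelium that carries the keratins Krt8, Krt18 and Krt19 together with the surface proteins mesothelin (Msln) and uroplakin 3b (Upk3b). Several of these genes are not confined to it, since Tcf21 also marks resident cardiac fibroblasts, Wt1 can be made by endothelial cells of stressed hearts, and the keratins occur in simple epithelia of many organs.

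The 3 libraries were not alike across the genome, and this touches every value given below. Egln1, the targeted gene, was 129.5 FPKM in the floxed library, 95.7 in Egln1_Tie2Cre and 129.0 in the library labelled Egln1_Hif2a_Tie2Cre. The last was thus near floxed, although its label names Egln1 as a target. Ventricle RNA also comes from cells in which the Tie2 promoter is not active, so this level cannot decide whether Egln1 was deleted. Directions drawn from that library rest on its label. Epas1 was 77.4, 65.0 and 54.5 in the same order. The Egln1_Tie2Cre library stood apart from the other 2. Genes with a mean of at least 1 FPKM over a pair were counted. For Egln1_Tie2Cre against floxed, 260 annotated pseudogenes entered, 196 of them differing by 2-fold or more upward and 22 downward. Of all 11978 genes entering, 618 differed upward and 674 downward. For Egln1_Hif2a_Tie2Cre against floxed the numbers were 11 and 17 of 113 pseudogenes, and 168 and 173 of all 11888 genes. A pseudogene that reached the minimum only through its Egln1_Tie2Cre level could have its upward call fixed by that. How many did so was not counted, so the share of 260 cannot be compared directly with that of 113. The tissue label was read against 10 ventricular muscle genes. Myl2, the ventricular regulatory myosin light chain, was at 10992, 19883 and 15211 FPKM in the floxed, Egln1_Tie2Cre and Egln1_Hif2a_Tie2Cre libraries, and the fast myosin heavy chain gene Myh6 was at 6691, 3645 and 4600. Of the 9 with a value in Egln1_Tie2Cre and floxed (Ryr2 had none used here for Egln1_Tie2Cre), 1 was at least 2-fold higher in Egln1_Tie2Cre. It was the slow myosin heavy chain gene Myh7, which overlaps antisense genes, at 89.95, 330.4 and 25.0, the order in which Krt19 and Wt1 stood as well.

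The genes did not behave as one group. Krt19, Krt18 and Wt1 were far higher in the Egln1_Tie2Cre library than in either other library, Krt8 followed them at a very low level, Tcf21 was nearly level, and Tbx18, Aldh1a2 and Upk3b were highest in the library labelled Egln1_Hif2a_Tie2Cre. Upk3b was lowest in the library where the keratins were highest. The set is therefore described gene by gene, with Krt19, Krt18 and Wt1 as its leading genes, and the data do not show the markers of a mesothelial sheet moving together.

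**Figure D1:**
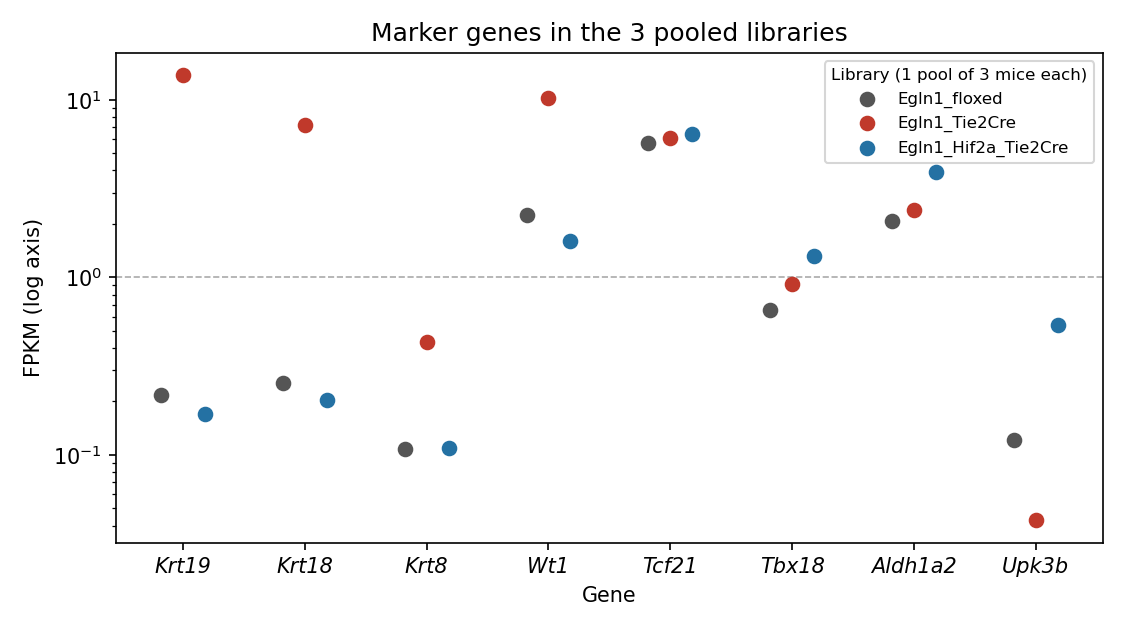
FPKM (log axis) of the 8 genes with a value, 1 point per pooled library, with a dashed line at 1 FPKM. Krt19, Krt18 and Wt1 sit at 13.7, 7.21 and 10.2 in Egln1_Tie2Cre and at or below 2.25 in the other libraries, whereas Tcf21 stays between 5.71 and 6.44.

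Promoter sequence was examined for every member with an entry in the RefSeq table (GRCm38.p6), which held 6 of the 9 genes: Krt18, Krt8, Upk3b, Tbx18, Tcf21 and Aldh1a2. Wt1, Krt19 and Msln have no entry there. The stretches shown are cut off at the GENCODE gene start, which for Krt18 and Krt8 lies upstream of the RefSeq start, so they hold 214 bases for Krt18, 110 for Krt8 and 250 for Upk3b. They are given for the keratin partners Krt18 and Krt8, both higher in Egln1_Tie2Cre, and for Upk3b, which ran the opposite way. Capitals mark the core of the hypoxia response element bound by HIF, searched as ACGTG or GCGTG on both strands. The first of these also lies inside the palindrome CACGTG, a site of other factors.
Krt18, chr15:102027966-102028179, plus strand: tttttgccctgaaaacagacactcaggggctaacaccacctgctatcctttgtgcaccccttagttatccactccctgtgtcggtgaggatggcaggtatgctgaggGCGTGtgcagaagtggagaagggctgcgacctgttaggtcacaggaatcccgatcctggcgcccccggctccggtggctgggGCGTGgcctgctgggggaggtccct
Krt8, chr15:102004483-102004592, minus strand: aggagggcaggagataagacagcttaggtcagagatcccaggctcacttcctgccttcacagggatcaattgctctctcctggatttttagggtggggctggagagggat
Upk3b, chr5:136038246-136038495, plus strand: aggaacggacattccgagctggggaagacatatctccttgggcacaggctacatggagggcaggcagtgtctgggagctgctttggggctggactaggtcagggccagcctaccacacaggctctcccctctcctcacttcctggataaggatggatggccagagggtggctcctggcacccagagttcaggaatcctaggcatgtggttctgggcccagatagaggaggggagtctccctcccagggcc
Krt18 held 2 matches, both GCGTG on the gene's own strand, beginning 143 and 61 bases before the RefSeq start, which lies beyond the end of the printed stretch. In the 250 bases before the start, Krt8, Upk3b and Tbx18 held 0 matches, Tcf21 held 1 and Aldh1a2 held 2. Such a match is common, being present in 38.6% of 32851 RefSeq promoter windows of the same length, and 3 of the 6 windows of these genes held one.

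Krt19 showed the largest difference of the set. It encodes a small type I keratin of simple epithelia and mesothelium. Krt19 (GRCm38 chromosome 11, 100140810 to 100148665, minus strand) was at 0.218 FPKM in the floxed library, 13.7 in Egln1_Tie2Cre and 0.169 in the library labelled Egln1_Hif2a_Tie2Cre. It was thus 62.8-fold higher in Egln1_Tie2Cre than in floxed, and 81.2-fold higher there than in Egln1_Hif2a_Tie2Cre, while the latter was 1.29-fold below floxed. Its level lay above 5.28% of the 14897 genes measured in all 3 libraries in floxed, above 71.1% in Egln1_Tie2Cre and above 3.43% in Egln1_Hif2a_Tie2Cre. In the first comparison 170 of 11978 genes had a ratio at least as large, and among 11174 protein-coding genes 22 did. No other gene's transcript matched Krt19 at 90% identity or more over at least 100 bases, and no annotated exon of another gene overlapped its exons.

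Krt18, another type I keratin and the usual filament partner of Krt8, followed the same order. Krt18 (chromosome 15, 102028180 to 102032027, plus strand) was at 0.255 FPKM in floxed, 7.21 in Egln1_Tie2Cre and 0.204 in Egln1_Hif2a_Tie2Cre. That is 28.2-fold higher in Egln1_Tie2Cre than in floxed, and 35 of the 11174 protein-coding genes had a ratio at least as large. Its value is less certain than that of Krt19, because a Krt18 transcript matches the pseudogene Gm5200 over 1269 bases, and the sources used here do not say how fragments that fit both were shared. No value for Gm5200 was analysed here, and its part in the Krt18 difference was not tested.

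Krt8, the type II keratin that pairs with Krt18, lies beside it on chromosome 15 (101996698 to 102004482, minus strand). It was at 0.109 FPKM in floxed, 0.430 in Egln1_Tie2Cre and 0.109 in Egln1_Hif2a_Tie2Cre. The 3.96-fold difference between the first 2 libraries therefore rests on levels below 1 FPKM, and the number of fragments behind them is unknown. Krt8 also matches the pseudogene Krt8-ps over 941 bases and shares exonic sequence with Gm36026 on the opposite strand, so its values are uncertain. Simple epithelial keratins form filaments from 1 type I and 1 type II chain. In Egln1_Tie2Cre the type I members exceeded Krt8 by 31.9-fold for Krt19 and 16.8-fold for Krt18, whereas in floxed they exceeded it by 2.01-fold and 2.35-fold. In Egln1_Hif2a_Tie2Cre the same quotients of FPKM were 1.55 and 1.87. The keratins thus did not keep a fixed proportion to each other across libraries.

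Wt1, a zinc-finger transcription factor of the embryonic and activated epicardium, was the leading gene among the transcription factors. Wt1 (chromosome 2, 105126529 to 105173616, plus strand) was at 2.25 FPKM in floxed, 10.2 in Egln1_Tie2Cre and 1.60 in Egln1_Hif2a_Tie2Cre. It was 4.53-fold higher in Egln1_Tie2Cre than in floxed and 6.38-fold higher there than in Egln1_Hif2a_Tie2Cre. Unlike the keratins, it was already measurable above 1 FPKM in every library. Among the 11174 protein-coding genes, 89 had a ratio to floxed at least as large. No near-identical transcript of another gene and no overlapping exon was found for Wt1.

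Tcf21, a basic helix-loop-helix factor of epicardial cells and their fibroblast descendants, was the most even member. Tcf21 (chromosome 10, 22817281 to 22820174, minus strand) was at 5.71 FPKM in floxed, 6.12 in Egln1_Tie2Cre and 6.44 in Egln1_Hif2a_Tie2Cre, a 1.13-fold difference between the highest and the lowest. It was the most abundant member in floxed and in Egln1_Hif2a_Tie2Cre, and was below Krt19, Wt1 and Krt18 in Egln1_Tie2Cre.

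Tbx18, a T-box factor of the epicardium that is also found in mural cells, was low throughout. Tbx18 (chromosome 9, 87702800 to 87731260, minus strand) was at 0.657 FPKM in floxed, 0.913 in Egln1_Tie2Cre and 1.31 in Egln1_Hif2a_Tie2Cre. The library labelled Egln1_Hif2a_Tie2Cre was 1.995-fold above floxed, just short of 2-fold, and Egln1_Tie2Cre was 1.39-fold above it. An exon of D030062O11Rik on the opposite strand overlaps Tbx18, and the sources used here do not say whether strand was used in counting.

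Aldh1a2 (chromosome 9, 71215789 to 71296243, plus strand), which makes retinoic acid in the epicardium, was at 2.06 FPKM in floxed, 2.38 in Egln1_Tie2Cre and 3.93 in Egln1_Hif2a_Tie2Cre. The last was 1.90-fold above floxed and 1.65-fold above Egln1_Tie2Cre, and Egln1_Tie2Cre was within 1.15-fold of floxed. In the comparison of Egln1_Hif2a_Tie2Cre with floxed, 211 of 11888 genes had a ratio at least as large as that of Aldh1a2. This gene thus differed between the libraries in another order than the keratins and Wt1.

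Upk3b, a uroplakin of mesothelium and urothelium, was below 1 FPKM in all 3 libraries. Upk3b (chromosome 5, 136038496 to 136046487, plus strand) was at 0.122 FPKM in floxed, 0.0429 in Egln1_Tie2Cre and 0.538 in Egln1_Hif2a_Tie2Cre. It was 2.84-fold lower in Egln1_Tie2Cre than in floxed and 4.42-fold higher in Egln1_Hif2a_Tie2Cre than in floxed. In Egln1_Tie2Cre it lay above only 0.463% of the genes measured in all libraries, the lowest place of any member in any library. The quotient of Wt1 to Upk3b FPKM was 18.5 in floxed, 238 in Egln1_Tie2Cre and 2.98 in Egln1_Hif2a_Tie2Cre. These quotients, like the Upk3b ratios above, rest on Upk3b levels below 1 FPKM. With depth unknown, their size cannot be weighed against counting error.

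**Figure D2:**
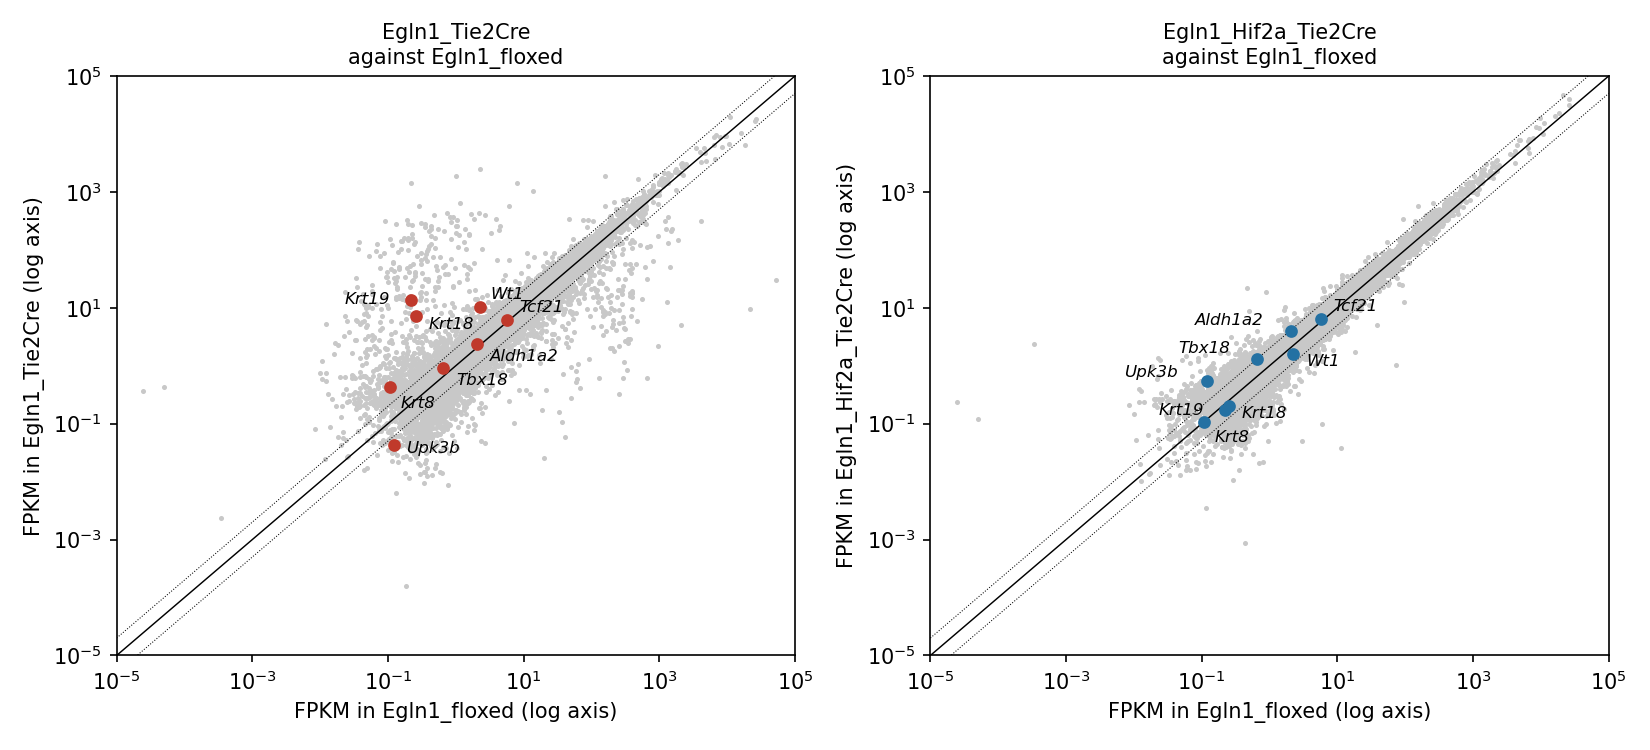
FPKM of every gene (grey, log axes) in Egln1_Tie2Cre (left) and Egln1_Hif2a_Tie2Cre (right) against Egln1_floxed, with the 8 marker genes coloured. The solid line marks equal values and the dotted lines 2-fold. On the left Krt19, Krt18, Krt8 and Wt1 lie above the upper dotted line and Upk3b below the lower one; on the right Upk3b alone of these genes lies beyond 2-fold, and Tbx18 sits at the line.

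Counted with the rest of the genome, genes with a mean of at least 1 FPKM over a pair of libraries were kept, and 2-fold refers to the plain ratio of FPKM. In Egln1_Tie2Cre over floxed, 5 of the 8 genes were kept and 3 of them (Krt19, Krt18 and Wt1) were at least 2-fold higher, where 5.16% of all 11978 genes kept were. At least 2-fold lower were 0 of the 5 and 5.63% of all genes kept. The median log2 ratio of FPKM + 1 was 1.79 over the 5 members kept and 0.017 over all genes kept, and it was 0.96 without Krt18 and Krt8, the members with a pseudogene copy. Krt19 and Krt18, at 0.218 and 0.255 FPKM in floxed, passed the minimum only through their Egln1_Tie2Cre level. For both, being kept already fixed the call as higher, which raises the count and the median of the members. Without the minimum, all 8 members enter: 4 were at least 2-fold higher and 1 lower, beside 7.73% and 9.21% of all 15030 genes, and the median over the members was 0.29. Since the members were chosen with these values known, nothing beyond description is read from the counts. The authors' deposited table gives a q-value of 0.9996 to each member it lists, in each of its comparisons.

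In Egln1_Hif2a_Tie2Cre over Egln1_Tie2Cre the order was turned. Of 6 members kept, Krt19, Krt18 and Wt1 were at least 2-fold lower, beside 5.25% of 11999 genes kept, and 0 were at least 2-fold higher, beside 6.33%. The median log2 ratio was -1.02 over the 6 members and -0.023 over all genes kept, and it was 0.063 without Krt18 and Krt8. Here too Krt19 and Krt18 passed the minimum only through their Egln1_Tie2Cre level, which already fixed their call as lower. With no minimum, 4 of the 8 were at least 2-fold lower and 1 higher, beside 7.46% and 9.74% of 15099 genes. The split among the 6 was even, with Krt19, Krt18 and Wt1 below 1 and Tbx18, Tcf21 and Aldh1a2 above. In Egln1_Hif2a_Tie2Cre over floxed, the pair without the library that stood apart, 0 of 3 members kept were at least 2-fold higher or lower, beside 1.41% and 1.46% of 11888 genes. The median log2 ratio was 0.15 over the 3 members and -0.0038 over all genes kept. With no minimum, 1 of the 8, Upk3b, was at least 2-fold higher, beside 4.52% of 15168 genes, and 0 were lower, beside 4.34%. The comparisons share libraries with each other, so they are not independent readings.

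A wider list of 23 epicardial and mesothelial genes other than the members gave a weaker picture. Of these, 14 had a value and 9 did not enter the analysis: Upk1b, Lrrn4, Bnc1, Muc16, Calb2, Pdpn, Dmkn, Krt7 and Slpi. In Egln1_Tie2Cre over floxed, 1 of 7 genes kept was at least 2-fold higher and 0 were lower, with a median log2 ratio of 0.47. The gene was Cldn15, a claudin of mesothelium and gut, at 1.66 FPKM in floxed, 3.76 in Egln1_Tie2Cre and 1.46 in Egln1_Hif2a_Tie2Cre. Scx, a transcription factor of tendon and proepicardium, was at 2.91, 5.81 and 5.17, and Prg4, which encodes the lubricant lubricin, at 4.55, 8.47 and 8.60. Both were therefore higher than floxed in each Cre library, unlike Krt19 and Wt1. Rarres2, the precursor of chemerin, was at 22.5, 31.6 and 35.6, and Ezr, the membrane linker ezrin, at 21.8, 21.8 and 17.5. Summed over the 14 genes, the list came to 73.2 FPKM in floxed, 90.95 in Egln1_Tie2Cre and 85.8 in Egln1_Hif2a_Tie2Cre, most of it from Rarres2, Ezr and Aldh1a1.

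Genes of retinoic acid metabolism and signalling, the pathway of Aldh1a2, went both ways. Of 21 genes on the list, 12 were kept in Egln1_Tie2Cre over floxed, with 1, Cyp26b1, at least 2-fold lower and a median log2 ratio of -0.055. Cyp26b1, which degrades retinoic acid, was at 3.87 FPKM in floxed, 1.60 in Egln1_Tie2Cre and 9.83 in Egln1_Hif2a_Tie2Cre, so that it was 2.42-fold lower than floxed in Egln1_Tie2Cre and 2.54-fold higher in Egln1_Hif2a_Tie2Cre. Cyp26b1 and Aldh1a2 were thus both highest in the library labelled Egln1_Hif2a_Tie2Cre. Other enzymes of retinoic acid synthesis did not share that order: Aldh1a1, a more abundant relative of Aldh1a2, was at 15.0, 14.0 and 12.4, and Rdh10, a retinol dehydrogenase, at 2.12, 2.08 and 2.12. Adh1, an alcohol dehydrogenase that can oxidise retinol, was at 19.5, 10.4 and 12.0, and Rxra, a retinoid receptor, at 17.2, 11.2 and 14.6. Dhrs3, a retinaldehyde reductase, was at 39.9, 46.3 and 43.7, and Rxrg, another retinoid receptor, at 30.4, 31.7 and 33.0.

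Factors of epicardial transition to mesenchyme and of epicardial signalling showed no common direction. Of 33 genes, 27 were kept in Egln1_Tie2Cre over floxed, with 1 at least 2-fold higher, 2 lower and a median log2 ratio of -0.047. Snai1, a repressor of epithelial cadherin, was at 0.492 FPKM in floxed, 2.01 in Egln1_Tie2Cre and 1.06 in Egln1_Hif2a_Tie2Cre. Ccbe1, a secreted factor needed for lymphatic growth, was at 1.75, 0.360 and 0.980, and Wnt5a, a Wnt ligand, at 3.23, 1.23 and 1.88. The 2 that were lower in Egln1_Tie2Cre were therefore also below floxed in the other Cre library. Fgf16, a heart-derived growth factor, was at 11.5, 5.95 and 9.64. Tmsb4x, an actin-binding peptide, was at 391.2, 331 and 638, and Ctnnb1, beta-catenin, at 138, 151 and 133.

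**Figure D3:**
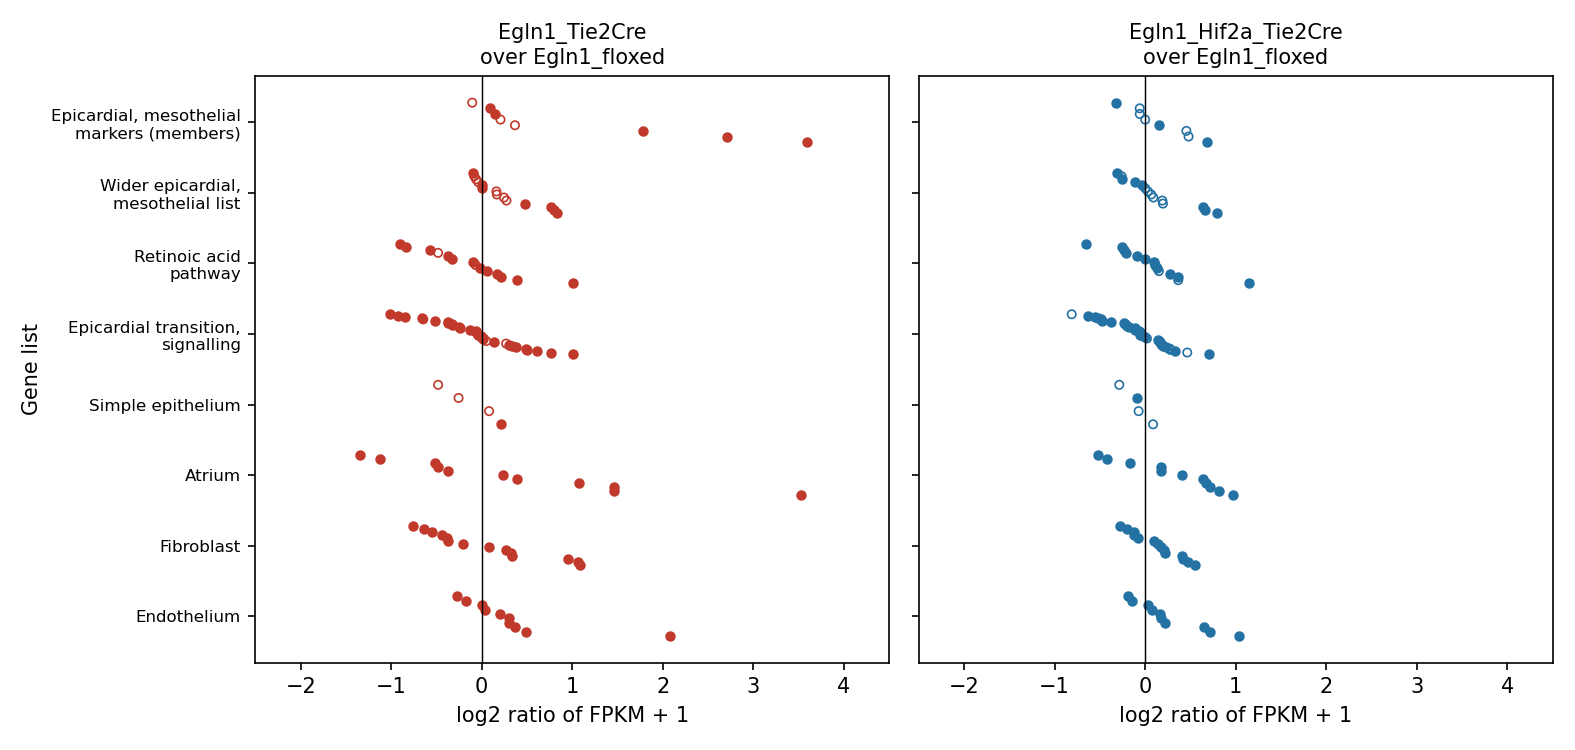
Log2 ratio of FPKM + 1 for each gene of 8 lists, in Egln1_Tie2Cre over floxed (left) and Egln1_Hif2a_Tie2Cre over floxed (right); filled points have a mean of at least 1 FPKM over the pair and open points less. On the left 3 of the members stand at 1.79 to 3.60 while the wider list stays below 1, and on the right every member lies between -0.32 and 0.69.

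Markers of other tissue that a ventricular piece could hold were read beside the keratins. Of 18 genes of simple epithelium, 4 had a value, among them Spint2, a protease inhibitor, at 17.6 FPKM in floxed, 20.5 in Egln1_Tie2Cre and 16.6 in Egln1_Hif2a_Tie2Cre. The defining genes Epcam and Cdh1 had no value used here. The summed level of the 4 was 18.8, 21.1 and 17.5, nearly all of it Spint2. The others were below 1 FPKM and differed in direction. In the same order Grhl2 was at 0.697, 0.215 and 0.392, Cldn7 at 0.291, 0.0811 and 0.227, and Esrp2 at 0.247, 0.319 and 0.325. Of 10 lung epithelial genes, 3 had a value and 0 were kept in any comparison. The atrial list moved with the keratins in part: 4 of 11 kept genes were at least 2-fold higher in Egln1_Tie2Cre than in floxed (Nppa, Dkk3, Myl7 and Myl4) and 2 were lower (Kcnj3 and Myl1). Its summed level was 306.7 FPKM in floxed, 2047 in Egln1_Tie2Cre and 451 in Egln1_Hif2a_Tie2Cre, most of it Nppa, the atrial natriuretic peptide, which ventricular muscle also makes under load. Bmp10 had no value used here. The part of atrial tissue in the keratin and Wt1 values was not tested. Fibroblast genes were 2 of 14 at least 2-fold higher in Egln1_Tie2Cre (Postn, periostin, and Mfap5, a microfibril protein), with a median log2 ratio of -0.061 and summed levels of 988, 1178 and 1145 FPKM. Of 10 endothelial genes, 1 was at least 2-fold higher, with a median of 0.25 and sums of 406, 527 and 513. Of 8 adipocyte genes, 3 were kept and 0 were 2-fold apart from floxed in Egln1_Tie2Cre, and Fabp4, a fatty acid carrier also made by endothelium, was at 1202, 1678 and 1444. In whole tissue a change in the number of cells of a type and a change in RNA per cell cannot be told apart.

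The genes most like Krt19 and Wt1 in pattern were sought over the 3 libraries, by the distance between their log2 differences from floxed, among 7685 named genes reaching at least 5 FPKM. With 3 libraries such a likeness is a description only. Nearest to Krt19 were Tnfrsf9 (distance 0.15), Gadl1 (0.32), Psme2b, Eif3j2, Slc3a1, Fam221b, Nppa and Mctp1 (0.79). Tnfrsf9, a receptor of activated lymphocytes, was at 0.0968 FPKM in floxed, 11.2 in Egln1_Tie2Cre and 0.117 in Egln1_Hif2a_Tie2Cre. Several of these neighbours are uncertain: Psme2b matches Psme2 over 794 bases and Eif3j2 matches Eif3j1 over 2379 bases, and exons of Gadl1, Slc3a1, Fam221b and Nppa overlap those of other annotated genes. Tnfrsf9 and Mctp1 had neither a copy nor an overlap. Nearest to Wt1 were Pdia5 (distance 0.26), Col27a1, Ackr2, Vwf, Ltbp2, Calcrl, Smad6 and Cnksr1 (0.45). Pdia5 was at 2.74 FPKM in floxed, 9.76 in Egln1_Tie2Cre and 1.96 in Egln1_Hif2a_Tie2Cre. In the same order Col27a1 was at 1.41, 7.01 and 1.33, and Ackr2 at 0.638, 5.25 and 0.595. Vwf, the von Willebrand factor stored by endothelial cells, was at 20.4, 89.2 and 17.8, and Calcrl, the receptor for adrenomedullin with its partner proteins, at 8.51, 27.1 and 8.52. Smad6, an inhibitor of bone morphogenetic protein signalling, was at 4.32, 12.8 and 3.30. Parts of Vwf transcripts matched those of 104 other genes over 300 bases or more, the longest match being 419 bases, and an exon of D030025P21Rik overlaps Ltbp2, so these values are less certain too. The lists for Krt19 and Wt1 had no gene in common. By this distance Krt19 and Wt1 lie too far apart for lists of this reach to share a gene, so nothing is read from that.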

How the data were processed

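Total RNA of left ventricles was sequenced as 3 libraries, 1 per genotype, each a pool of 3 mice. Per the submitters' processing notes, TopHat2 and Cuffdiff were used; no label or header states a Cuffdiff version, genome build, annotation or depth, so no interval is given for a level. Per the file headers, the authors deposited FPKM of 2 libraries per table, with a fold ratio and a q-value. Columns were assigned by the sample titles in each table's name, and recurring values agreed within 0.1% for all shared genes. Values were joined over tables by Ensembl gene ID.

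Ratios of FPKM and log2 ratios of FPKM + 1 (which understate differences at low levels) were computed with pandas 2.3.3 for genes with a mean of at least 1 FPKM, and checked on simulated data. Gene positions, classes and overlaps came from GENCODE (GRCm38), matching 15293 of 15503 IDs, and near-identical transcripts (90% identity over 100 bases, or 300 for genes alike in pattern) from BLAST 2.17.0. Of each of 11 other lists, up to 6 genes could be named, the 4 furthest from 0 on the log2 scale in Egln1_Tie2Cre over floxed and the 2 most abundant; for lists of other cell types fewer are given. Myl4, Kcnj3, Aldh1a1, Rdh10, Grhl2, Cldn7, Esrp2, Krt80 and the further keratins, uroplakins and Wt1os were named after their values were seen. The genes nearest to Krt19 and Wt1 were 8 each, without predicted genes, pseudogenes, mitochondrial or sex-linked genes. Alternatives were another pseudocount (0.1), no minimum or 5 FPKM, 1.5-fold, and 2 scalings. Some genes on the lists are not reported here. Members and lists were chosen with earlier results of these data known.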

Additional observations from a re-analysis of the deposited data

How the results depend on the processing

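No paired analysis was possible because each genotype has 1 library, and for the same reason no replicate could be left out. Setting the median ratio of all genes to 1, or scaling by the upper quartile, moved no count of members past 2-fold. With no minimum FPKM, members at least 2-fold lower in Egln1_Tie2Cre over floxed numbered 1, members at least 2-fold higher numbered 1 in Egln1_Hif2a_Tie2Cre over Egln1_Tie2Cre and 1 over floxed, and the median log2 ratios were 0.29 for Egln1_Tie2Cre over floxed and -0.15 for Egln1_Hif2a_Tie2Cre over Egln1_Tie2Cre, since members below 1 FPKM enter. The wider list then had 2 genes higher in Egln1_Tie2Cre than in floxed, and 2 lower in Egln1_Hif2a_Tie2Cre than in Egln1_Tie2Cre and 1 lower than in floxed. At a minimum of 5 FPKM the wider list had 0 in the first of these comparisons and 0 in the second, and the median of the members in the second was -2.11, over 3 genes. At 1.5-fold the wider list had 3 genes higher than floxed in each Cre library, and 1 member, Aldh1a2, was higher in Egln1_Hif2a_Tie2Cre than in either other library. Without Krt18 and Krt8, an alternative added after the data were seen, the median log2 ratio was 0.96 for Egln1_Tie2Cre over floxed and turned to 0.063 for Egln1_Hif2a_Tie2Cre over Egln1_Tie2Cre, with fewer genes. A pseudocount of 0.1 widened the log2 ratios of Krt19, Krt18, Krt8 and Upk3b, the first to 5.44 in Egln1_Tie2Cre over floxed. Depth is unknown, so differences below 1 FPKM cannot be weighed against counting error.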

Other observations

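Keratins and uroplakins outside the marker set were read after the values were seen. Krt80, a type II keratin of differentiating epithelia, was like Krt19 highest in Egln1_Tie2Cre. It was at 0.886 FPKM in floxed, 4.12 in Egln1_Tie2Cre and 0.911 in the library labelled Egln1_Hif2a_Tie2Cre. Unlike Krt19, it was slightly lower in floxed than in Egln1_Hif2a_Tie2Cre. It was 4.65-fold higher in Egln1_Tie2Cre than in floxed. Krt10, a keratin of the epidermis, went another way, at 0.988, 1.60 and 1.98, as did Krt222, at 11.6, 8.21 and 8.53. Upk1a, a uroplakin of the urothelium, was at 0.198, 0.416 and 0.379, below 1 FPKM throughout like Upk3b.

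The RNA transcribed beside Wt1 on the opposite strand, listed as AI314831 in the deposited tables and as Wt1os in the annotation, was at 0.0584 FPKM in floxed, 0.354 in Egln1_Tie2Cre and 1.45 in Egln1_Hif2a_Tie2Cre. Like Wt1 it was higher in Egln1_Tie2Cre than in floxed, by 6.07-fold at levels below 1 FPKM, but unlike Wt1 it was highest in Egln1_Hif2a_Tie2Cre.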
